A study of Rattus norvegicus with 12 samples.

Results

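The metallothionein and zinc control genes described here are 6 of the 32623 genes in the count tables: the metallothioneins Mt1 (ENSRNOG00000038047) and Mt2A (ENSRNOG00000043098), the zinc sensor Mtf1 (ENSRNOG00000025724), the zinc exporter Slc30a1 (ENSRNOG00000004749) and the zinc importers Slc39a1 (ENSRNOG00000059463) and Slc39a14 (ENSRNOG00000009832). They were picked by symbol, each symbol had 1 row, and all 6 were among the 13539 genes with enough counts to be tested. The choice was made with earlier results of these data in view, so the tests below describe these libraries and are not independent evidence.

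Polyadenylated RNA was sequenced from cultured rat cells, given in the labels as hepatic stellate cells in primary culture, from animals with cirrhosis brought on by long exposure to carbon tetrachloride vapour. For 24 h the cells shared medium, across Transwell membranes, with 15000 viable human amniotic epithelial cells (hAEC), with the same number of human amniotic mesenchymal stromal cells (hAMSC), or with vehicle (Veh in the labels), and each group had 4 libraries. The labels give no rat strain, sex or age and do not tell which libraries share a rat or a culture dish, so the spread behind each p-value is that among these libraries and could be technical. Each library is named by its group and the number in its label.

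Metallothioneins are small cysteine-rich proteins that bind zinc and copper in the cytosol and buffer the free metal. When free zinc rises, the zinc-finger factor MTF-1, encoded by Mtf1, binds metal response elements in the promoters of metallothionein genes and of Slc30a1 and activates them; glucocorticoids, cytokines and oxidants also induce metallothioneins. Slc30a1 (ZnT1) moves zinc out of the cell across the plasma membrane, Slc39a1 (ZIP1) brings it in, and Slc39a14 (ZIP14) imports zinc, iron and manganese and is induced in the liver by interleukin-6.

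Total expected counts were 27382724 to 34922211 per library. The libraries parted into 2 sets that cross the groups and that the labels do not name: set A holds hAEC 3 and 4, hAMSC 7 and 8 and vehicle 17 and 18, and set B holds hAEC 11 and 12, hAMSC 15 and 16 and vehicle 19 and 20. The first principal component of the 2000 most variable genes held 73.5% of the variance and separated them. The labelled cell type was checked against markers: the median of 12 stellate cell and myofibroblast markers was 1.78 CPM (a count scaled by the total of its library) and Lrat, which makes stored retinyl esters, was at 0 to 0.371 CPM, while the median of 15 macrophage markers was 563 CPM. The summed macrophage markers were at 7973 to 8479 CPM in set A and 19930 to 21690 CPM in set B. These are bulk samples, so fewer cells of a type and less RNA per cell cannot be told apart.

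The promoters of Mt1 and Mt2A are shown because these are the members that differed most between libraries and that varied together, with that of Slc30a1, a known target of MTF-1, beside them. The sequences are the 250 bases before the start of each gene in RefSeq's GRCr8 table, 5′ to 3′ on the gene's own strand, at chr19:10832976-10833225 (minus strand) for Mt1, chr19:10838709-10838958 (minus strand) for Mt2A and chr13:106021769-106022018 (plus strand) for Slc30a1. GRCr8 is not the build of the counts, and the promoters were matched by symbol. Capitals mark matches, on either strand, to the 7-base core of the metal response element, searched as TGCACNC and as TGCGCNC.
Mt1: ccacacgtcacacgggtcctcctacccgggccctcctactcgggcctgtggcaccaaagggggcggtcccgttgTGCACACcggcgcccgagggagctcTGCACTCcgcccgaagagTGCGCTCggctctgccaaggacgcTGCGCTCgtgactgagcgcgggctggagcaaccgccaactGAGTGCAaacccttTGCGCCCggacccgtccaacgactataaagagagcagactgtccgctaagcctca
Mt2A: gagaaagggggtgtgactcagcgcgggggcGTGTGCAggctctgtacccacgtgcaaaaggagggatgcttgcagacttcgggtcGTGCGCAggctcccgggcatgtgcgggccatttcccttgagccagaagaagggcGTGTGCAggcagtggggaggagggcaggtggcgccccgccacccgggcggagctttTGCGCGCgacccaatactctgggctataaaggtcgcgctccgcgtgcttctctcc
Slc30a1: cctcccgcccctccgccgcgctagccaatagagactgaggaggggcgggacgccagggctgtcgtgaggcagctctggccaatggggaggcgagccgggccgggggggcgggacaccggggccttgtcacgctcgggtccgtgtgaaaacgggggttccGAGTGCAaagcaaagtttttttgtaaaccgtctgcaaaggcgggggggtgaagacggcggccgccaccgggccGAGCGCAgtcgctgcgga

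Mt1 had 6 matches, 5 on the gene's strand and 1 on the other, and Mt2A had 4, 1 on the gene's strand and 3 on the other; none overlapped. Slc30a1 and Mtf1 had 2 each and Slc39a1 had 1. Among the 33469 promoter windows that RefSeq table holds, 20.6% had a match, 4.90% had at least 2, 0.266% at least 4 and 0.0269% at least 6. Both metallothionein windows held the G form of the core on the gene's strand 55 to 49 bases before the start. In the RefSeq table Mt1 and Mt2A lie on the same strand of chromosome 19. Slc39a14 was not matched. A match describes these letters and is not a measured binding site.

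**Figure D1:**
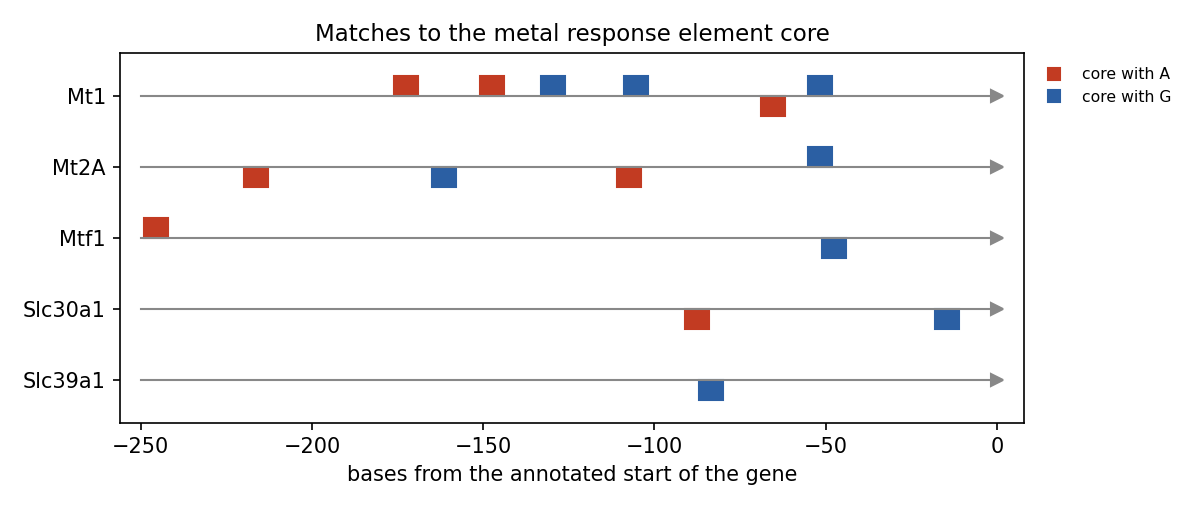
Positions of matches to the metal response element core in the 250 bases before the annotated start of 5 zinc genes (x axis, bases from the start); boxes above a line lie on the gene's strand and boxes below it on the other, red for the A form and blue for the G form. Mt1 holds 6 boxes and Mt2A 4, against 1 or 2 for the others.

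Mt1 and Mt2A were several times higher in set A than in set B. Mt1 lay between 60.8 and 95.2 CPM in the 6 set A libraries and between 14.0 and 28.2 CPM in the 6 set B libraries (79.8 ± 13.2 against 20.8 ± 5.78, SD, n = 6), a ratio of means of 3.84. Mt2A lay between 65.7 and 95.8 CPM in set A and between 9.90 and 32.9 CPM in set B (81.9 ± 12.1 against 17.8 ± 9.99, SD, n = 6), a ratio of 4.599. Slc39a14 (36.5 to 40.0 against 20.9 to 23.9 CPM, ratio 1.64), Slc30a1 (124 to 162 against 103.6 to 112 CPM, ratio 1.31) and Slc39a1 (263 to 284 against 244 to 261 CPM, ratio 1.07) were also higher in set A. The sets overlapped for Mtf1 (16.1 to 24.5 against 20.02 to 30.2 CPM). Thus 5 of 6 members were higher in all set A than in all set B libraries, where 28% of all genes tested were so and 26.9% the other way. The sets were read from these expression values, so no test is given for this difference. The summed level of endothelium markers was also higher in set A, at 487 to 607 against 213 to 355 CPM. That of macrophage markers was lower, as given above, but single macrophage markers differed in direction. Lyz2 was at 984 to 1195 CPM in set A against 8401 to 9941 in set B. Cd14 was at 932 to 1080 against 167 to 217 CPM, and Marco at 98.8 to 115 against 34.0 to 48.1. The part of either list in the difference was not tested. CPM are not divided by gene length, so levels are compared between libraries and not between genes.

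In set A both metallothioneins were lower with either human cell type than with vehicle, as were 22.1% of all genes for hAMSC and 20.1% for hAEC. Mt1 was at 91.7 and 95.2 CPM in vehicle 17 and 18, at 69.1 and 78.1 in hAEC 3 and 4, and at 60.8 and 84.0 in hAMSC 7 and 8. Mt2A was at 93.4 and 95.8 CPM with vehicle, 73.9 and 75.0 with hAEC, and 65.7 and 87.7 with hAMSC, in the same order. For both genes the 2 vehicle libraries stood above the 4 others, as they did for 11.3% of all genes tested, and the hAMSC values spread around those of hAEC. Of 12 hepatocyte markers in set A, 7 were lower in both hAMSC libraries than in both vehicle libraries and none higher. With hAEC 6 were lower and 1 higher. The 1 higher was Tf, the most abundant of them, at 573 and 508.5 CPM with vehicle and 583 and 583 with hAEC. In hAMSC 7 and 8 Tf was at 649 and 546 CPM. The summed level of the 11 other than Tf, which alone was at 508.5 to 649 CPM in set A, was 12.7 and 13.4 CPM with vehicle, 7.49 and 9.43 with hAEC and 3.24 and 9.69 with hAMSC. Most of these markers were near 0: 3 of the 12 averaged over 1 CPM, and the median was 0.290 CPM. With hAMSC in set B, 3 of the 12 were lower than vehicle in both libraries and 1, again Tf, higher. The sum without Tf was there 5.93 and 4.03 CPM with hAMSC against 5.895 and 7.78 with vehicle. The part of these markers in the result was not tested.

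In set B the metallothioneins were highest with hAMSC. Mt2A was at 13.1 and 11.5 CPM in vehicle 19 and 20, at 11.4 and 9.90 in hAEC 11 and 12, and at 32.9 and 28.1 in hAMSC 15 and 16. Mt1 was at 19.8 and 17.8 CPM with vehicle, 14.0 and 17.4 with hAEC, and 28.2 and 27.5 with hAMSC. Both hAMSC libraries lay above the other 4 for each gene, as for 9.17% of all genes. Both hAEC libraries lay below both vehicle libraries, as for 16.6% of all genes, for Mt2A by as little as 11.4 against 11.5 CPM. The order of Mt2A over the 6 combinations was vehicle, hAMSC and hAEC in set A (94.6 ± 1.67, 76.7 ± 15.6 and 74.4 ± 0.767 CPM, SD, n = 2 each), then hAMSC, vehicle and hAEC in set B (30.5 ± 3.45, 12.3 ± 1.10 and 10.7 ± 1.07). Of neighbours in this order, hAMSC and hAEC in set A overlapped.

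With hAMSC, the change in Mt2A differed between the sets. Within set B, Mt2A rose 2.48-fold over vehicle (log2 1.31, SE 0.15, adjusted p = 0.00287, edgeR quasi-likelihood with Benjamini-Hochberg over all genes), and within set A its log2 difference was -0.30 (SE 0.13, adjusted p = 0.393). In set B 1.02% of genes passed that test, 0.857% as higher; in set A 0.0812% passed. The difference between the sets itself was 1.615 on the log2 scale (SE 0.19, adjusted p = 0.0173, edgeR quasi-likelihood with Benjamini-Hochberg), 1 of 6 members, where 0.199% of all genes passed. The 2-library patterns behind it, above vehicle in set B and below it in set A, were shared by Mt1 and by 4.13% of all genes. The call was lost without hAMSC 15 (log2 1.49, adjusted p = 0.0988), vehicle 17 (1.62, 0.0536), vehicle 18 (1.60, 0.0937), vehicle 19 (1.71, 0.0931) or vehicle 20 (1.53, 0.0977), while the difference kept its direction and lay between 1.42 and 1.83 (1.835 without hAMSC 8) in all fits that left out 1 library.

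Mt1 showed values of the same directions that did not pass. With hAMSC its log2 difference from vehicle was 0.57 (SE 0.16) within set B (edgeR with Benjamini-Hochberg, adjusted p = 0.288) and -0.37 (SE 0.15) within set A (adjusted p = 0.386), and the sets differed by 0.94 (SE 0.22, adjusted p = 0.203). It passed for the set difference without hAMSC 8 (log2 1.184, edgeR adjusted p = 0.00255) and by DESeq2 (0.93, adjusted p = 0.000222), and with the low-count filter left off. With the filter left off 533 genes passed that test, against 27 (0.199%) in the main fit. DESeq2 also called more genes than the main fit, as given further below. In a fit of the set B libraries alone Mt1 also passed against vehicle (log2 0.57, edgeR adjusted p = 0.0395), as did 0.7% of genes. Averaged over the sets, hAMSC against vehicle was 0.07 (SE 0.21) for Mt1 and 0.46 (SE 0.33) for Mt2A, neither of which passed (edgeR with Benjamini-Hochberg, adjusted p = 0.942 and 0.708). In that comparison 32 of 13539 genes passed (0.236%), none of the 6 members among them.

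Endothelium markers moved with Mt2A with hAMSC in set B and with hAEC in set A, but were divided with hAMSC in set A. In set B, 9 of the 10 endothelium markers were higher in both hAMSC libraries than in both vehicle libraries, Ptprb being the exception, and their summed level was at 291 to 355 CPM with hAMSC, 229 CPM in each vehicle library and 213 to 228 CPM with hAEC. Of all genes, 18.7% were higher in this way. Lyve1, a hyaluronan receptor of lymphatic and sinusoidal endothelium, was at 7.99 to 10.8 CPM in the hAMSC libraries of set B against 2.542 to 2.996 with vehicle, and the vascular endothelial growth factor receptor gene Kdr at 18.4 to 20.4 against 9.17 to 11.8. In set A, 9 of 10 were lower in both hAEC libraries than in both vehicle libraries, as were 20.1% of all genes, with a summed level of 498 to 518 against 559 to 589 CPM. With hAMSC in set A, where Mt2A was below vehicle, 2 of the 10 were higher than vehicle in this way and 2 lower. Of all genes, 22.1% were lower there. The summed level was 487 CPM in hAMSC 7 and 607 CPM in hAMSC 8. None of the 10 markers was at 0 in all libraries, but Stab2 and Clec4g averaged 0.998 and 0.438 CPM and fell to 0 in some. Both are among the markers counted as higher in set B and lower in set A. Eng, the most abundant in set B, is also made by macrophages. With the mean log2 level of these markers added to the fit, a choice made after the data were seen, the set difference was 0.94 for Mt2A (SE 0.18, edgeR with Benjamini-Hochberg, adjusted p = 0.417) and 0.61 for Mt1 (SE 0.37, adjusted p = 1). Before adjustment the edgeR p of Mt2A was 0.000114. In this fit 1 gene passed for the set difference with hAMSC, against 27 (0.199%) in the main fit. The part of the endothelium markers in the result was not tested beyond this fit.

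**Figure D2:**
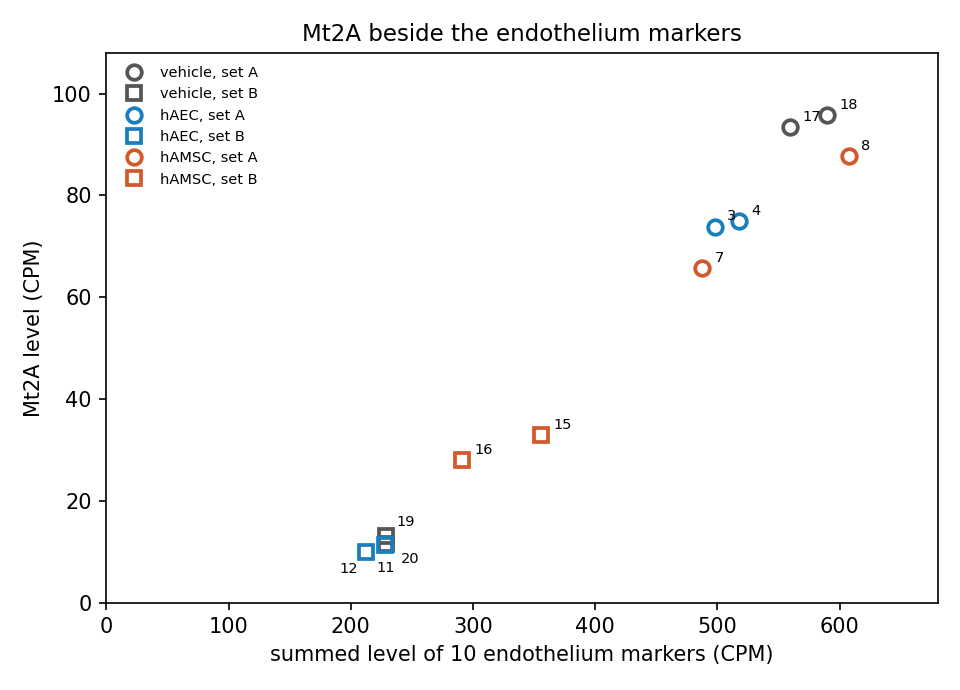
Mt2A level (y axis, CPM) against the summed level of 10 endothelium markers (x axis, CPM) in the 12 libraries; circles are set A, squares set B, colours the groups and numbers the label numbers. In set B, hAMSC 15 and 16 lie above the 4 other libraries on both axes; in set A, hAMSC 7 is lowest on both.

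With hAEC, the metallothioneins were lower than vehicle in both sets without passing. The log2 difference with the set in the model was -0.31 (SE 0.21) for Mt1 and -0.30 (SE 0.33) for Mt2A (edgeR with Benjamini-Hochberg, adjusted p = 0.92 and 0.954). Within set A the differences were -0.35 for each gene (SE 0.15 and 0.13), and within set B -0.26 (SE 0.17) and -0.21 (SE 0.15). Both genes belong to the 3.60% of genes tested whose hAEC libraries lay below the vehicle libraries in each set without overlap. For hAEC against vehicle edgeR called 0 of the 13539 genes (0%), limma voom 1 and DESeq2 2. Before adjustment 759 of the 13539 had an edgeR p below 0.05, against 1310 for hAMSC. Such a count also holds genes without a difference.

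Between the human cell types, Mt2A was at 9.90 to 11.4 CPM with hAEC and 28.1 to 32.9 with hAMSC in set B, a fold of 0.349 (log2 -1.52, SE 0.15, edgeR with Benjamini-Hochberg, adjusted p = 0.0016). There 0.547% of all genes passed, 0.487% as lower. Mt1 was at log2 -0.83 (SE 0.17, adjusted p = 0.109), and passed in a fit of the set B libraries alone (edgeR adjusted p = 0.00567), as did 0.432% of genes. In set A the same differences were -0.04 and 0.02, and in the fit over both sets neither gene passed (-0.76 and -0.38, edgeR adjusted p = 0.786 and 0.885; 0.0222% of genes passed). The hAMSC libraries enter this comparison and the one with vehicle, so the values are not independent of each other.

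The balance of the metallothioneins also differed between libraries. The ratio of Mt1 to Mt2A CPM was 0.926 to 1.04 in the 6 set A libraries. It was 1.23 and 1.76 in hAEC 11 and 12 and 1.52 and 1.55 in vehicle 19 and 20, but 0.858 and 0.979 in hAMSC 15 and 16. The ratio of hAMSC 16 thus lay within the set A range and that of hAMSC 15 below it, apart from the other 4 set B libraries. Mt1m, which RefSeq lists as a pseudogene, was at 0 to 2.30% of the expected count of Mt1, and reads could have been divided between it and the true metallothionein genes.

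**Figure D3:**
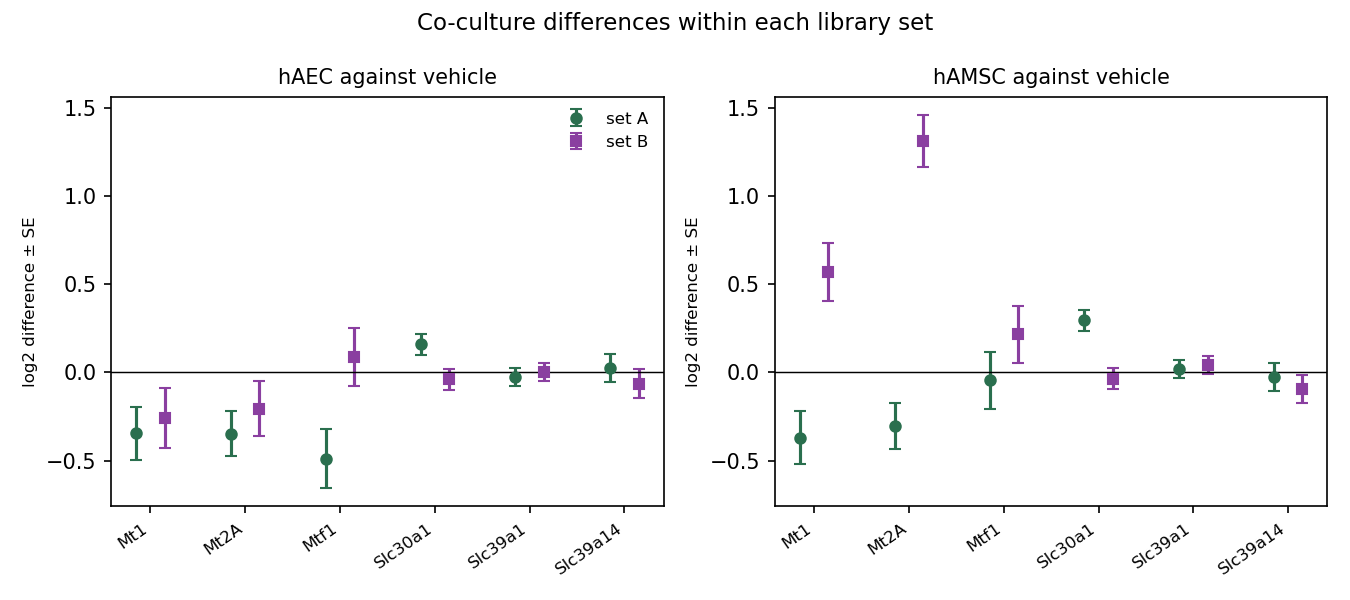
Log2 difference from vehicle (y axis, with SE from the edgeR fit of all 12 libraries) of the 6 genes within set A (circles) and set B (squares), for hAEC and for hAMSC. The set A and set B values of Mt2A with hAMSC, -0.30 and 1.31, lie farthest apart.

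The zinc exporter Slc30a1 had its highest values with hAMSC in set A, where the metallothioneins were highest with vehicle. In set A it was at 131 and 124 CPM in vehicle 17 and 18, at 146 and 139.6 in hAEC 3 and 4, and at 162 and 152 in hAMSC 7 and 8, with no overlap between the 3 groups, an order that 3.01% of all genes had. In set B it lay between 103.6 and 112 CPM in all 6 libraries, and the groups overlapped. Within set A its log2 difference with hAMSC was 0.30 (SE 0.06) and with hAEC 0.16 (SE 0.06), neither passing (edgeR with Benjamini-Hochberg, adjusted p = 0.0878 and 0.815). With hAMSC it passed in a fit of the set A libraries alone (log2 0.30, edgeR adjusted p = 0.0324), where 0.638% of genes passed, against 0.0812% within set A from all libraries. Within set B the values were -0.04 (SE 0.06) with either cell type. The set difference was -0.33 (SE 0.08) for hAMSC and -0.20 (SE 0.08) for hAEC (edgeR with Benjamini-Hochberg, adjusted p = 0.146 and 0.901; no gene passed the hAEC test, 0%).

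Mtf1, the zinc sensor, was low with hAEC in set A. It was at 16.1 and 17.5 CPM in hAEC 3 and 4 against 24.0 and 23.1 in vehicle 17 and 18 and 24.5 and 21.1 in hAMSC 7 and 8. Of all genes tested, 20.1% had both hAEC libraries below both vehicle libraries in set A. In set B the groups overlapped, with 24.4 and 21.7 CPM for hAEC, 20.5 and 22.8 for vehicle and 30.2 and 20.02 for hAMSC 15 and 16. The value of hAMSC 15 was the highest of the 12 libraries, and without it the log2 difference of hAMSC from vehicle went from 0.08 to -0.03 and the set difference from 0.26 to -0.07. The log2 difference of Mtf1 with hAEC was -0.49 (SE 0.16) within set A and 0.09 (SE 0.16) within set B (edgeR with Benjamini-Hochberg, adjusted p = 0.815 and 0.978), and the set difference did not pass (0.58, SE 0.23, adjusted p = 0.901). Mtf1 lies at 479 to 896 expected counts per library, none of them whole.

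The importers had the smallest differences from vehicle of the 6 genes in the fit over both sets. Slc39a1 lay between 244 and 284 CPM in all libraries, and its log2 differences from vehicle were -0.01 (SE 0.03) with hAEC and 0.03 (SE 0.03) with hAMSC. Slc39a14 was at 37.8 and 37.7 CPM in vehicle 17 and 18, 40.0 and 36.9 in hAEC 3 and 4, and 37.7 and 36.5 in hAMSC 7 and 8. In set B it was at 23.9 and 23.8 CPM with vehicle, 23.5 and 22.2 with hAEC and 23.8 and 20.9 with hAMSC. Its differences from vehicle were -0.02 (SE 0.06) and -0.06 (SE 0.06). Neither importer passed in any comparison (edgeR with Benjamini-Hochberg, adjusted p of 0.782 or more).

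**Figure D4:**
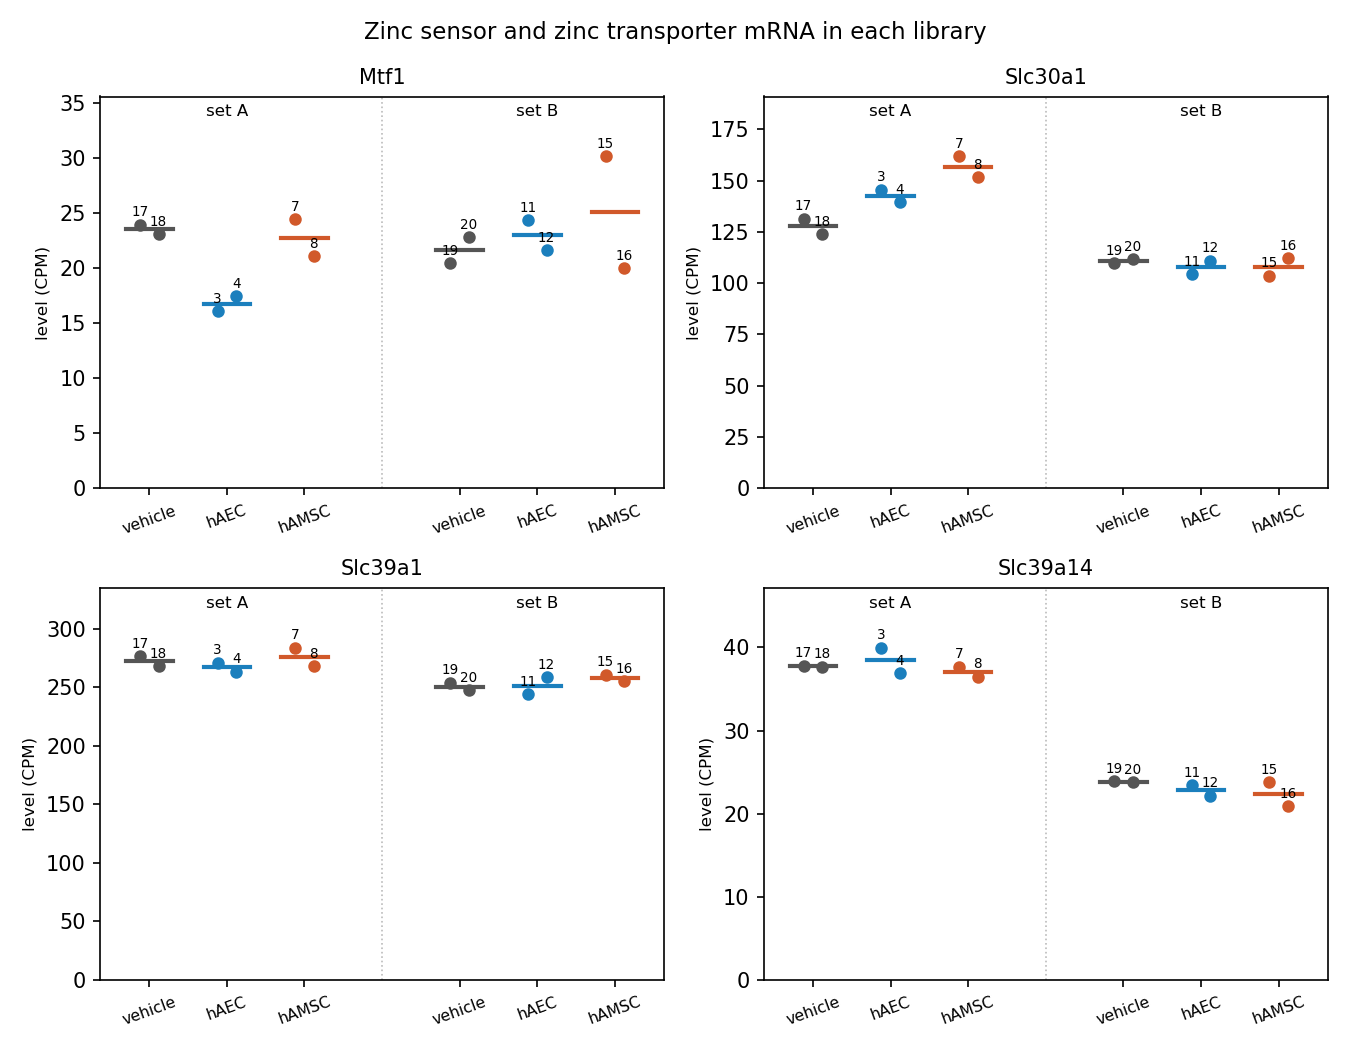
Level (y axis, CPM) of Mtf1, Slc30a1, Slc39a1 and Slc39a14 in each library, by group and library set; points are libraries with their label numbers and bars are means of 2. Slc30a1 steps from 124 to 162 CPM over the set A groups and is flat in set B, and hAEC 3 and 4 are the lowest libraries for Mtf1.

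None of the other listed zinc genes passed by edgeR in a comparison between groups, over both sets or within one. Of the other metallothioneins, Mt4 was at 0 in every library and Mt3, a form known from the brain, reached at most 0.282 CPM. Of 10 Slc30a exporters, 7 were tested, with a median log2 difference of 0.01 with hAEC and -0.02 with hAMSC; Slc30a8, of pancreatic islets, and Slc30a10 were at 0. Of 14 Slc39a importers, 13 were tested, with medians of 0.01 for both, beside a median of 0.00 over all genes. The nearest was the plasma membrane importer Slc39a10. It was at 83.4 and 78.7 CPM in vehicle 17 and 18, 91.1 and 86.3 in hAEC 3 and 4 and 99.8 and 93.5 in hAMSC 7 and 8, then at 49.0 and 51.6, 57.9 and 55.7, and 52.8 and 58.4 in the same order in set B. Both treated groups lay above vehicle in each set without overlap, as did 4.39% of all genes for hAEC and 3.95% for hAMSC. Its log2 difference was 0.20 (SE 0.05) with hAMSC and 0.15 (SE 0.05) with hAEC (edgeR with Benjamini-Hochberg, adjusted p = 0.123 and 0.86), and with hAMSC it passed by DESeq2 (0.20, adjusted p = 0.0213) and without hAMSC 15 (0.24, adjusted p = 0.0192). For hAMSC against vehicle DESeq2 called 155 genes and the fit without hAMSC 15 called 153, against 32 (0.236%) in the main fit.

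Among genes that respond to oxidants, which also induce metallothioneins, most values were below 0 with hAMSC. Of 12 listed genes, all tested, 11 were below 0 (median log2 -0.08, against 0.00 over all genes, of which 48.9% were above 0) and 1 passed. This was the quinone reductase gene Nqo1, at 279 to 286 CPM with vehicle and 217 to 227 with hAMSC in set A, and at 553 to 578 and 479 to 507 in set B, which fell by 0.27 on the log2 scale (SE 0.04, edgeR with Benjamini-Hochberg, adjusted p = 0.00648; 0.236% of genes passed; within set B alone it did not pass). The haem oxygenase gene Hmox1 was at 2675 to 2738 against 2183 to 2186 CPM in set A and 2618 to 2639 against 2396 to 2511 CPM in set B (log2 -0.20, SE 0.04, adjusted p = 0.0833). Both genes lay below vehicle in each set without overlap, as did 4.49% of all genes. Within set A both fell, Hmox1 by 0.31 (SE 0.05) and Nqo1 by 0.35 (SE 0.05), and the cystine transporter gene Slc7a11 rose by 0.58 (SE 0.09) on the log2 scale (edgeR, adjusted p = 0.0294 for each; 0.0812% of genes passed). With hAEC 10 of the 12 were below 0 and none passed. Of 11 tested glucocorticoid-responsive genes none passed in either comparison, with median log2 differences of -0.01 with hAEC and -0.02 with hAMSC. With hAEC 5 of these genes were above 0 and 6 below. The smallest p was that of Sgk1 (0.11, SE 0.04, edgeR adjusted p = 0.864), above vehicle in each set without overlap, as were 4.39% of all genes. Fkbp5, a classical target of the glucocorticoid receptor, was at 0.13 (SE 0.07, edgeR adjusted p = 0.901) with hAEC. Zbtb16 was at -0.57 (SE 0.34, edgeR adjusted p = 0.92).

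The interleukin-6 family response is a pathway that induces both metallothioneins and Slc39a14 in liver. Of its 13 listed and tested genes, 5 rose over vehicle with hAMSC in set B, where 0.857% of all genes did. They were the receptor genes Lifr (log2 2.19, SE 0.29), Osmr (0.86, SE 0.19) and Il6st (0.76, SE 0.11), the transcription factor gene Stat3 (0.22, SE 0.05) and its feedback inhibitor Socs3 (1.22, SE 0.15), with adjusted p of 0.001 to 0.0393 in edgeR's test. Within set A none of the 13 passed. Socs3 was at 2.33 and 2.85 CPM in vehicle 19 and 20 and at 6.24 and 5.79 in hAMSC 15 and 16, but at 26.7 and 30.8 in vehicle 17 and 18 and at 27.1 and 31.0 in hAMSC 7 and 8. Lifr was at 0.988 and 0.841 CPM with vehicle and 5.09 and 3.30 with hAMSC in set B, against 4.01 and 4.66 and 4.24 and 5.60 in set A. The test of the difference between the sets passed for these 2 genes (Socs3 1.20, SE 0.20, and Lifr 2.01, SE 0.38, edgeR with Benjamini-Hochberg, adjusted p = 0.0192 and 0.0454). The endothelium markers given above moved in the same libraries, and their part was not tested. Over both sets 11 of the 13 were above 0 with hAMSC (median log2 0.09, against 0.00 over all genes), and none passed.

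The genes whose levels followed those of a member most closely were found by Pearson's r over the 12 libraries, on log2 CPM with the mean of each set taken off, among 9230 genes of at least 5 CPM. For Mt2A they were Pde2a (r = 0.99), Cyp4f5 (0.98), Adgrf5 (0.98), Tnfsf9 (0.97) and Gata4 (0.97). For Mt1 they were Ddx39a (0.93), Caskin2 (0.92), Gata4 (0.92), Hyou1 (0.92) and Ap1b1 (0.91), and Mt1 with Mt2A gave 0.90. Mtf1 was nearest to Zfp646, Mgrn1 and Traf2 (0.87 to 0.93), Slc30a1 to Zhx1, Dcaf7 and Rsbn1l (0.94 to 0.95), Slc39a1 to Zdhhc5, C1r and Pde8a (0.89 to 0.92), and Slc39a14 to Arhgef39, C3 and Stard5 (0.86 to 0.90). The values describe the highest of many and carry no test.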

How the data were processed

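Expected counts per gene, not scaled between libraries, were deposited by the authors, per the file headers; the submitters' processing notes name FastQC, Trim Galore, STAR, RSEM and limma and the builds rn6 and Rnor_6.0, with versions and roles not given in the sources used here. The labels' protocols name TruSeq stranded mRNA libraries. Of the values 90.1% were whole. RSEM divides reads that fit several genes, which bears on Mt1, Mt2A and Mt1m.

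After rounding, edgeR 4.0.16 (R 4.3.3) was used for tests: filterByExpr kept 13539 genes, TMM scaled the libraries (factors 0.973 to 1.03), and the robust quasi-likelihood test was two-sided, with Benjamini-Hochberg adjustment over all genes and a threshold of 0.05. The model held the group and the library set (biological coefficient of variation 9.91%; 38.9% without the set), where the set is the sign of the first principal component. A fit with a mean per group and set gave the set differences and, added after the data were seen, the differences within a set. CPM use TMM library sizes, and log2 CPM a prior count of 2. The script was tested on simulated data. Libraries were checked for duplicates within each group, and none were found there. DESeq2 1.42.0, limma voom 3.58.1, other scalings and filters, and each library left out were alternatives.

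The members, lists, sets and tests were chosen with earlier results of these data known. The rule named the 6 members, the listed genes that passed, up to 3 of smallest p per list and comparison, and the genes most like a member. Of these only some are printed.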

Additional observations from a re-analysis of the deposited data

Results flagged for a closer look

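The hAMSC difference of Mt2A stood apart because it differed between the library sets: the set B value minus the set A value was 1.615 on the log2 scale (SE 0.19, edgeR with Benjamini-Hochberg, adjusted p = 0.0173). Both set B libraries with hAMSC were above both vehicle libraries, as for 18.7% of all genes, and both set A libraries with hAMSC were below both, as for 22.1%; 4.13% of all genes had both patterns. Over the alternatives tried the value lay between 0.94, with endothelium markers in the fit, and 1.835, without hAMSC 8. The part of the endothelium markers in it was not tested beyond that fit.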

How the results depend on the processing

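No paired analysis was possible because the groups share no sample numbers. With 2 libraries per group and set, the counts of genes that passed moved strongly with the fit, and the cause was not tested. For hAEC against vehicle the count was 0, and 2 by DESeq2, 1 by limma voom, 10 with the 2 groups alone, 1 in set A alone and 6 in set B alone. For hAMSC against vehicle it was 32, and 155 by DESeq2, 52 without a filter, 9 with the 2 groups alone, 0 without the library set, 86 and 94 in sets A and B alone, and 11 and 138 within them from all libraries. Leaving out 1 library gave 8 (vehicle 18) to 153 (hAMSC 15). For hAEC against hAMSC it was 3, and 80 by DESeq2, 10 by voom, 26 without a filter, 0 without the set, 1 and 58 in sets A and B alone, 0 and 74 within them from all libraries, and 0 to 50 with 1 library left out (50 without hAMSC 7). For the set difference with hAEC it was 0, and 23 by DESeq2, 6 with endothelium markers, 309 without a filter and 0 to 5 with 1 left out. For that with hAMSC it was 27, and 113 by DESeq2, 10 by voom, 1 with endothelium markers, 533 without a filter and 0 (vehicle 19) to 158 (hAMSC 16) with 1 left out.

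Signs that turned, all on the log2 scale and none past the threshold, were as follows. Values for a set alone are followed by those within the set from all libraries. For hAMSC against vehicle in set A, Mt1 was -0.36 and -0.37, Mt2A -0.30 and -0.30 and Mtf1 -0.0387 and -0.0459. Slc30a1 in set B was -0.0383 and -0.0365. Mt1 was -0.16 without the library set and -0.10 by voom. For hAEC against vehicle in set B, Mtf1 was 0.0867 and 0.0888, Slc30a1 -0.0422 and -0.0402 and Slc39a1 0.001643 and 0.003534, and in set A Slc39a14 was 0.0329 and 0.0272. Mt1 for hAEC against hAMSC in set A was 0.0219 and 0.0242. Mtf1 was -0.22 for the set difference with hAMSC with endothelium markers. With 1 library left out, hAMSC against vehicle ranged from -0.0414 to 0.273 for Mt1 and -0.0313 to 0.181 for Mtf1. Likewise hAEC against vehicle ranged from -0.0296 to 0.00344 for Slc39a1 and -0.0440 to 0.00453 for Slc39a14. The set difference with hAEC ranged from -0.0778 to 0.234 for Mt1 and -0.0112 to 0.0718 for Slc39a1. That with hAMSC ranged from -0.0668 to 0.526 for Mtf1, -0.0214 to 0.0622 for Slc39a1 and -0.167 to 0.0220 for Slc39a14. Nqo1 with hAMSC did not pass in edgeR's test with the 2 groups alone (-0.27, adjusted p = 0.0548), without the library set, or in set B.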

Other observations

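Metallothioneins bind copper as well as zinc, and no listed copper gene passed by edgeR against vehicle in the fit over both sets. Of 14 listed, which include Mt1 and Mt2A, 8 were above 0 with hAMSC and 7 with hAEC. Slc31a1, the copper importer, was at 57.4 to 66.1 CPM in set A and 117 to 126 in set B, and its log2 difference with hAMSC was 0.09 (SE 0.04, edgeR with Benjamini-Hochberg, adjusted p = 0.48). The exporter gene Atp7a was at 0.16 (SE 0.06, adjusted p = 0.398). Cp, which encodes the copper-carrying ferroxidase ceruloplasmin, was at -0.13 (SE 0.05, adjusted p = 0.438) and lower than vehicle in both sets without overlap, as were 4.49% of all genes.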
